A study of Mus musculus with 4 samples.

Results

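The genes described here encode the proteins of the cytosolic ribosome. They were taken by symbol from the deposited gene table: names beginning Rpl or Rps followed by a number, together with Rplp0, Rplp1, Rplp2 and Rpsa, without the Rps6k kinases and without pseudogene rows. This gave 85 genes of 18560 in the table, 53 assigned to the large subunit and 32 to the small subunit, with paralogs such as Rpl22l1 and Rps27l included. Of the 85, 84 passed the filter on low counts and were tested. The member left out, Rpl10l, a retrotransposed copy of Rpl10, had 0 counts in both KO libraries, and 0 and 1 count in the WT libraries.

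A ribosome is built from a small subunit, which reads the mRNA, and a large subunit, which forms peptide bonds, and nearly every ribosomal protein is present in a fixed ratio to the others. Ribosomal protein mRNAs are short and very abundant, and most start with a run of pyrimidines, the terminal oligopyrimidine (TOP) motif, through which the kinase mTOR and the protein LARP1 control their translation. T cells that leave the resting state make many more ribosomes before they divide.

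The libraries came from naive CD4+ T cells of C57BL/6 mouse spleen, cultured with antibodies to CD3 and CD28 and labelled Th0 cells. The KO group held 2 libraries, replicates 9 and 12, whose genotype label reads Setd2-CD4 cre, a deletion of the histone H3 lysine 36 methyltransferase gene Setd2 by a Cre recombinase under the control of Cd4. The WT group held 2 libraries, replicates 1 and 6, labelled wild type, and no label says whether these cells carried the Cre or a floxed allele. The age and sex of the mice, and whether replicates were separate animals, are not stated, so p-values cover the scatter of these libraries alone, which may be technical. The titles carry the number 48, the series text gives 2 days of stimulation and the treatment label gives 3 days.

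Library totals ran from 17284613 to 20418766 counts. The 5 T cell markers in the table summed to 1571 and 1426 CPM in KO libraries and to 1840 and 2122 CPM in WT libraries, and B cell markers to 125 and 232 CPM in KO libraries and 168 and 109 CPM in WT libraries. The pair of CD8 genes summed to 432 and 323 CPM in KO libraries and 260 and 330.2 CPM in WT libraries. Macrophage and natural killer cell markers summed to under 5 CPM in each library, and erythroid markers ran from 2.15 to 19.8 CPM, with no marker list at 0 in any library. The part of other cells in the results below was not tested. Setd2 stood at 127 and 113 CPM in KO libraries and 157 and 174 CPM in WT libraries (log2 fold change -0.47, SE 0.21, edgeR adjusted p 0.421). Its effective length, implied by the deposited values, was 8521 bases. The 375 non-member genes tested above 8000 bases had a median log2 fold change of -0.50, close to that of Setd2. Whether the lower Setd2 level comes from the deletion was not tested, and a gene-level count does not show whether the deleted exons were lost. CPM is the count scaled to library size with TMM factors. Log2 fold changes are KO over WT, and SE is their standard error.

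Ribosomal protein genes took 8.86% and 10.4% of all counts in KO libraries, against 8.01% and 8.25% in WT libraries. Both KO libraries were thus above both WT libraries, with most of the distance in KO replicate 12. The means were 9.63 ± 1.09% in KO cells and 8.13 ± 0.171% in WT cells (SD, n = 2 each), a difference of 1.50 percentage points. With 2 libraries against 2, an exact two-sided test cannot give a p below 0.333, so no p is given. Without KO replicate 12 the difference was 0.727 percentage points, and without KO replicate 9 it was 2.27. In bulk RNA, a change in the number of cells of a type and a change in RNA per cell cannot be told apart.

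Levels of different genes were compared as FPKM, the deposited values scaled to gene length. Averaged over the 4 libraries, 55 members were above 1000 FPKM, 24 were between 100 and 1000, 2 between 10 and 100, and 4 below 10. Members made up 34 of the 50 genes with the highest FPKM and 60 of the top 100. Summed over all members, FPKM came to 118400 and 138926 in KO libraries and to 106603 and 109525 in WT libraries.

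The highest levels belonged to Rps2, which encodes a protein near the mRNA entry of the small subunit, with 3805 and 3991 FPKM in KO libraries and 2861 and 2657 FPKM in WT libraries. Rps26, whose protein lies at the mRNA exit, had 3422 and 3781 FPKM in KO libraries and 2625 and 3161 FPKM in WT libraries. Rpl23a, which lies at the exit of the nascent chain, had 3116 and 3519 FPKM in KO libraries and 2759 and 2997 FPKM in WT libraries. In each of these both KO libraries exceeded both WT libraries in FPKM. In CPM this held for 25.4% of all genes tested. Rplp0, the next in level, overlapped, with 2871 and 3232 FPKM in KO libraries and 2676 and 2966 FPKM in WT libraries. Rplp1, which followed it, did not, with 2818 and 3534 FPKM in KO libraries and 2386 and 2406 FPKM in WT libraries. The order of members by level was nearly the same in every library (Spearman correlation across the 85 genes from 0.979 to 0.989, a description across genes that share libraries and gene lengths).

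**Figure D1:**
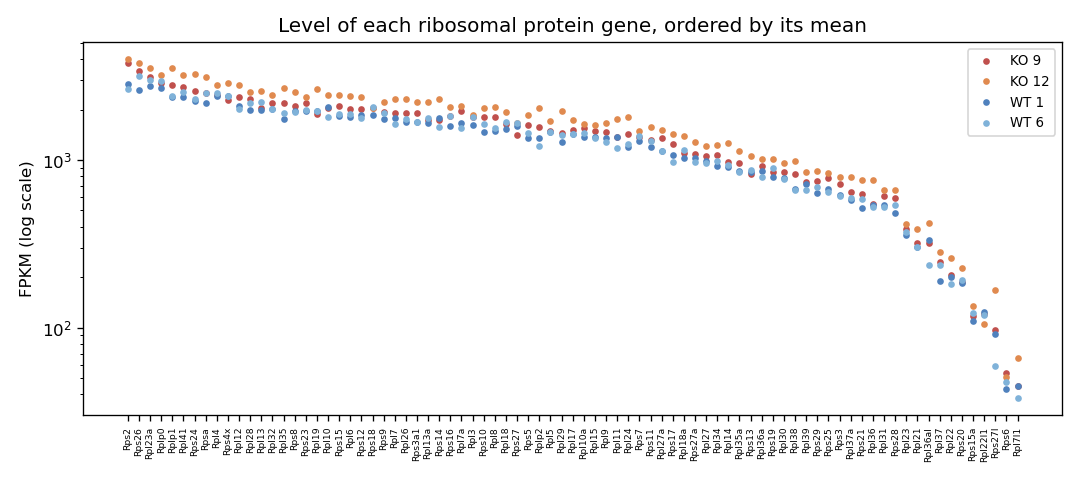
FPKM (log scale) of the 81 members with a mean of at least 10 FPKM, ordered by mean level, with 1 point per library (KO 9, KO 12, WT 1, WT 6). Levels ran from 3329 FPKM on average for Rps2 down to 48.3 for Rpl7l1, and KO replicate 12 was the highest point for most of them.

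Members at the low end need care. Rps6, the small subunit protein that S6 kinases phosphorylate downstream of mTOR, had 53.2 and 50.8 FPKM in KO libraries and 43.0 and 47.6 FPKM in WT libraries, far below the other core members. Counts that were not whole, which arise where the authors' counting shared reads among genes, occurred in 39 of the 85 members, Rps6 among them. How many Rps6 reads were assigned to other loci was not tested. Rpl37 had 3596 and 4874 counts in KO libraries and 3175 and 3733 in WT libraries, fewer than its retrogene Rpl37rt with 5143 and 5887 counts in KO libraries and 4972 and 4839 in WT libraries, so the split between this pair is uncertain. Rps27rt had 1085 and 1121 counts in KO libraries and 1302 and 808 in WT libraries, against 7691 to 10780 for Rps27. Rpl31-ps12 had 1316 and 2094 counts in KO libraries and 1319 and 1654 in WT libraries, against 10094 to 14038 for Rpl31.

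Gene length also enters the FPKM values. Rps15a, a small subunit member, took 611 and 735 CPM in KO libraries and 570 and 603 CPM in WT libraries, but only 117 and 134 FPKM in KO libraries and 110 and 123 FPKM in WT libraries. The effective length implied by its counts and FPKM was 5197 bases, whereas the principal GENCODE transcript of 5179 bases has a coding part of 390 bases. Rps20 likewise had an implied length of 3475 bases and a coding part of 357 bases. The FPKM of such members depends on whether those long transcripts are the ones expressed, which was not tested.

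The main comparison asked whether the ribosomal protein mRNAs differed between KO and WT cells. Of 84 members tested, 82 had a positive log2 fold change, where 49.8% of all 12816 genes tested did, and 2 (Rpl22l1 and Rpl3l) a negative one, where 50.2% did. The median over members was 0.35 and over all genes tested it was -0.0024. Both KO libraries were above both WT libraries for 73 of the 84 members (86.9%), where this held for 25.4% of all genes, and below them for 0 members, where this held for 24.3%. The 11 tested members whose groups overlapped were Rpl3l, Rpl10, Rpl13, Rpl19, Rpl22l1, Rpl36al, Rpl39l, Rps4x, Rps13, Rps14 and Rps27.

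No member passed the test. edgeR's quasi-likelihood test with Benjamini-Hochberg adjustment over all genes called 0 members higher, with a background of 0.0078%, and 0 lower, with a background of 0.0%. DESeq2 called 0 members in either direction, where it called 0.687% of all genes higher and 0.757% lower, and limma-voom also called 0 members. Before adjustment, 5 members (5.95%) were higher and 0 lower at an edgeR p under 0.05, and all genes had 6.23% higher and 5.73% lower, so the members' share of higher genes was near that of all genes. Among 869 other genes with an effective length under 1 kb, 133 (15.3%) were higher and 18 lower at that p. For members under 1 kb the higher share was 7.58%. DESeq2 at the same unadjusted p had 8 members higher and 0 lower, where all genes had 6.59% higher and 6.48% lower. The 5 members in edgeR were Rps2, Rps27l, Rplp2, Rpl38 and Rpl35. The smallest adjusted p of any member was 0.412 in edgeR and 0.194 in DESeq2.

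The shift was similar in both subunits. The 52 large subunit members tested centred on a median log2 fold change of 0.34, with 50 of them positive. The 32 small subunit members had a median of 0.36, and all 32 were positive, although Rps27 at 0.0034 turned negative under 8 of the 15 alternative settings. Summed FPKM of the large subunit over that of the small subunit was 1.47 and 1.50 in KO libraries and 1.50 and 1.47 in WT libraries, so the groups overlapped in this ratio.

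**Figure D2:**
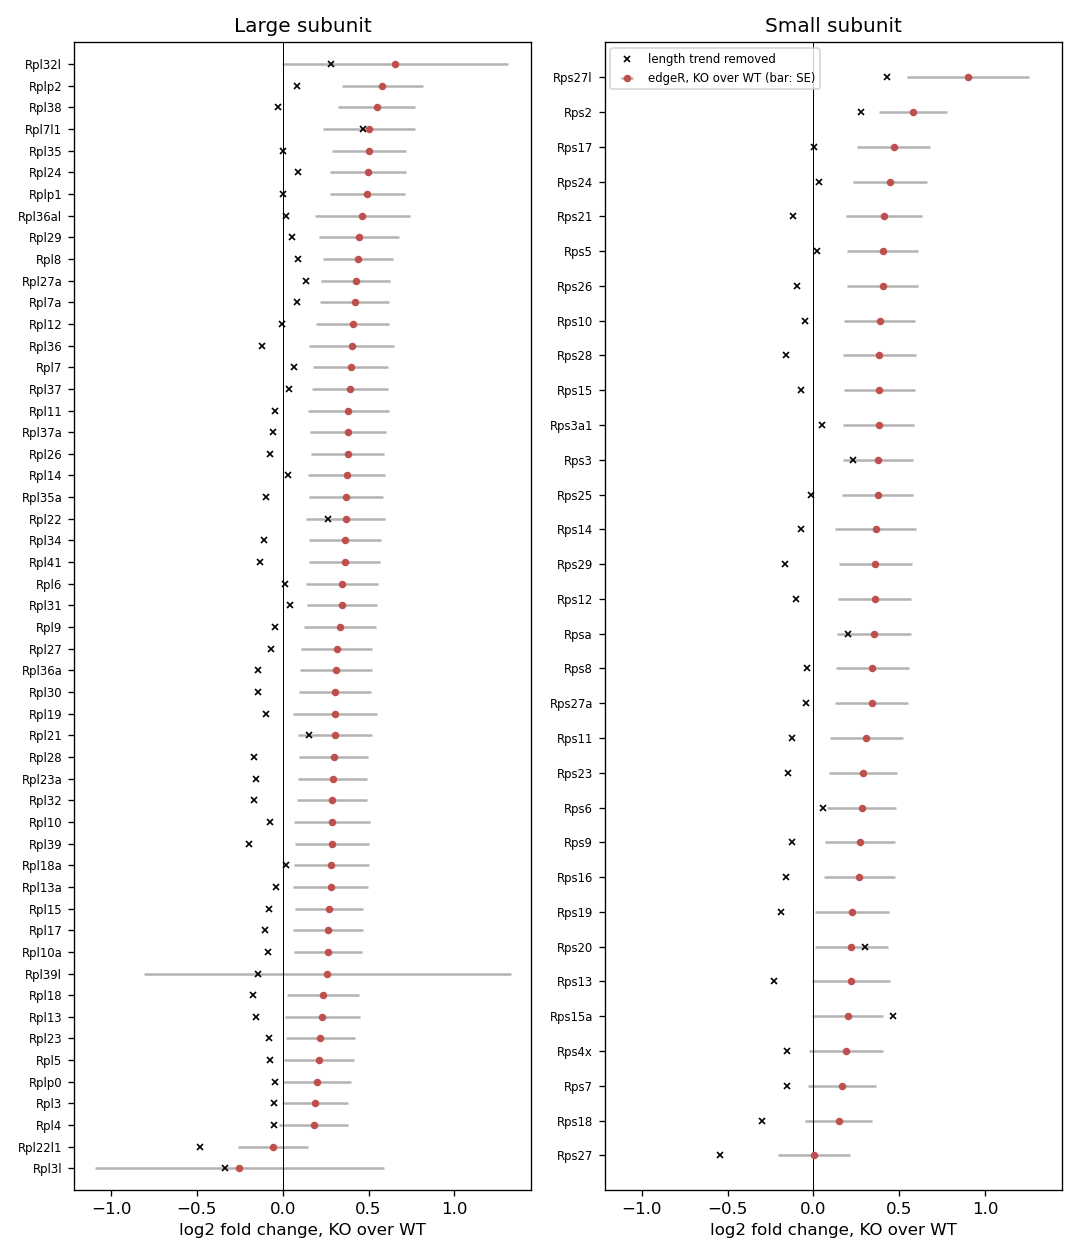
Log2 fold change of each tested member, KO over WT (red points, bars are SE), for the large subunit (left) and the small subunit (right), with the value after a length trend was removed (black crosses). All but 2 of the red points lie to the right of 0, whereas 54 of the 84 crosses lie to its left.

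Members with a mean count of at least 1000 formed a narrow band. The 80 such members had log2 fold changes from -0.057 to 0.58 with an interquartile range of 0.12, while the 4125 other genes of at least that count had an interquartile range of 0.57. The SD over these members was 0.11 and the median SE of a member 0.21. That SE includes scatter between libraries that the members share, and differences between members were not tested.

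The libraries within a group differed from each other as well. Relative to WT replicates 1 and 6, the median member stood 0.44 and 0.51 higher on the log2 scale in KO replicate 12, but 0.15 and 0.21 higher in KO replicate 9. KO replicate 12 exceeded KO replicate 9 by a median of 0.30, with 81 of 84 members higher, while WT replicate 6 differed from WT replicate 1 by -0.044. The distance between the 2 KO libraries was therefore larger than that between KO replicate 9 and either WT library. Without KO replicate 12 the median log2 fold change of members was 0.17, and 0 members had an unadjusted edgeR p under 0.05, where 2.15% of all genes were higher and 2.42% lower. Without KO replicate 9 the median was 0.48, and 25 members were higher at that p, where 8.08% of all genes were, and 0 lower, where 10.7% were. Without WT replicate 1 the median was 0.37, with 4 members higher, where 9.14% of all genes were, and 0 lower, where 6.81% were. Without WT replicate 6 it was 0.30, with 0 members higher, where 2.68% of all genes were, and 0 lower, where 2.09% were.

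**Figure D3:**
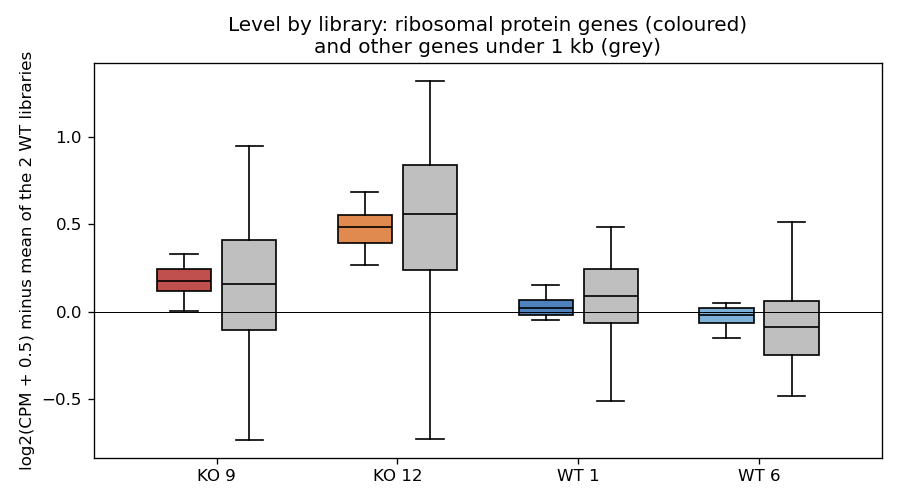
Log2(CPM + 0.5) of each gene minus its mean in the 2 WT libraries, by library, for the tested members (coloured) and for 869 other tested genes with an effective length under 1 kb (grey). Boxes span the quartiles with the median line, and whiskers the 5th to 95th percentiles. The grey boxes are wider than the coloured ones, and KO 12 is the highest library for both.

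Ribosomal protein genes are short, with a median effective length of 658 bases against 2741 for the other genes tested, and other short genes mostly stood higher in KO libraries too. Of 869 other genes under 1 kb, 690 (79.4%) had a positive log2 fold change, with a median of 0.39, and 386 (44.4%) had both KO libraries above both WT libraries. The 66 members under 1 kb had a median of 0.36, and the median was 0.41 for 181 other genes and 0.36 for 31 members of 400 to 600 bases. Between 1000 and 1500 bases it was 0.28 for 1328 other genes and 0.25 for 10 members. In these classes the members' median was close to that of other genes of their length. In the 3 longer classes that hold members, 8 in all, the members' median was higher: between 1500 and 2000 bases it was 0.35 for 3 members (Rps3, Rpsa and Rpl21) and 0.16 for 1567 other genes. The 80 members and the 209 other genes under 1 kb with a mean count of at least 1000 had interquartile ranges of 0.12 and 0.39. The difference between the shares with both KO libraries above both WT libraries was not tested.

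Length and KO replicate 12 went together. Other genes under 1 kb stood 0.46 and 0.66 higher in KO replicate 12 than in WT replicates 1 and 6, and 0.049 and 0.28 higher in KO replicate 9. In the comparison of KO replicate 9 with WT replicate 1, the median of the members (0.15) was above that of other short genes (0.049), while in the other 3 KO to WT pairs it was below. WT replicate 6 was lower than WT replicate 1 by 0.19 in other short genes and by 0.044 in members.

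With a trend on log effective length, fitted on the other genes, removed from each library, the median of the members became -0.054. Then 30 members were positive and 54 negative, 0 members were called by edgeR, and 0 members were higher before adjustment (p under 0.05), where 5.87% of all genes were, and 1 (Rps27) lower, where 5.13% were. The sign of the members' median therefore depended on whether this fitted trend was removed. Comparison by length class gave no such uniform sign. The members' median was above that of other genes under 400 bases (0.39 and 0.34) and at 800 to 1000 bases (0.38 and 0.35). It was below at 400 to 600 bases (0.36 and 0.41) and at 600 to 800 bases (0.33 and 0.40). Only 33 other genes were under 400 bases, and how well the trend fits the shortest genes was not tested.

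**Figure D4:**
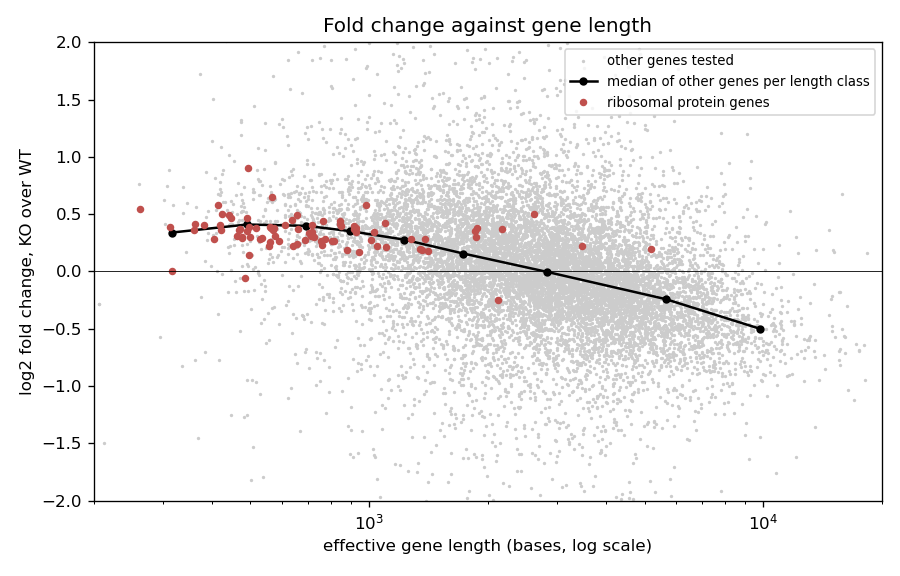
Log2 fold change, KO over WT, against effective gene length in bases (log scale) for tested members (red) and other tested genes (grey, those beyond 2 in either direction not drawn), with the median of the other genes in each of 9 length classes (black line). The black line runs from 0.34 under 400 bases and 0.41 at 400 to 600 bases to -0.50 above 8000 bases, and most red points lie along its left part.

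The 4 members of 2000 to 4000 bases, Rpl7l1, Rpl22, Rps20 and Rpl3l, had a median of 0.29, with Rpl3l negative, where 5022 other genes of that length had -0.0038. Rps15a, the longest, had a log2 fold change of 0.20 (SE 0.21), where 2742 other genes of 4000 to 8000 bases had a median of -0.24, and Rps20 had 0.22 (SE 0.21). With the trend removed Rps15a stood at 0.46 (SE 0.22, unadjusted edgeR p 0.0753) and Rps20 at 0.30 (SE 0.19, unadjusted edgeR p 0.168). Rps15a and Rps20 were picked out with their values known.

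Rps2 had the smallest p of all members. It stood at 3741 and 4134 CPM in KO libraries and at 2805 and 2468 CPM in WT libraries, with no overlap, and KO replicate 9 was nearly as high as KO replicate 12. Its log2 fold change was 0.58 (SE 0.20), a 1.49-fold difference, an edgeR p of 0.0198 and, adjusted, 0.412. With each library left out in turn it stayed between 0.49 and 0.69, and with the length trend removed it was 0.27 (SE 0.16).

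The acidic stalk of the large subunit, made of Rplp0, Rplp1 and Rplp2, recruits and activates the elongation factors. Rplp2 stood at 649 and 896 CPM in KO libraries and at 558 and 475 CPM in WT libraries (log2 0.58, SE 0.24, edgeR adjusted p 0.413, and log2 0.33 without KO replicate 12). Rplp1 stood at 1242 and 1641 CPM in KO libraries and at 1049 and 1002 CPM in WT libraries (log2 0.49, SE 0.22, edgeR adjusted p 0.417). Rplp0, which anchors both to the ribosome, stood at 3882 and 4604 CPM in KO libraries and at 3607 and 3788 CPM in WT libraries (log2 0.20, SE 0.20, edgeR adjusted p 0.658). In each of the 3 genes both KO libraries exceeded both WT libraries, where this held for 25.4% of all genes tested, and none passed the test. Among other genes it held for 41.4% of those of 400 to 600 bases and 43.2% of those of 1000 to 1500 bases. Rplp0 is the longest of the 3 genes, with an effective length of 1349 bases against 440 and 414 bases for Rplp1 and Rplp2, and with the length trend removed the values were -0.043, 0.0042 and 0.085 for Rplp0, Rplp1 and Rplp2.

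Rpsa, which encodes a small subunit protein also described as a laminin receptor, had the most counts of any member. It stood at 4661 and 6178 CPM in KO libraries and at 4077 and 4402 CPM in WT libraries (log2 0.35, SE 0.22, edgeR adjusted p 0.484). The KO libraries were both higher, and replicate 12 held most of the distance.

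Several members have known roles outside the ribosome. Rpl5 and Rpl11 bind 5S rRNA, and when ribosome assembly fails they inhibit MDM2, the ligase that degrades p53. Rpl11 stood at 793 and 1065 CPM in KO libraries and at 788 and 638 CPM in WT libraries (log2 0.38, SE 0.24, edgeR adjusted p 0.489), so that KO replicate 9 barely exceeded WT replicate 1. Rpl5 had a log2 fold change of 0.21 (SE 0.20, edgeR adjusted p 0.647). Rps19, in which mutations cause Diamond-Blackfan anaemia in humans, stood at 541.2 and 682 CPM in KO libraries and at 506 and 541.0 CPM in WT libraries (log2 0.22, SE 0.21). Here KO replicate 9 and WT replicate 6 were nearly equal.

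Rpl38, needed in mice for the translation of Hox mRNAs, stood at 217 and 275 CPM in KO libraries and at 177 and 160.4 CPM in WT libraries (log2 0.55, SE 0.22, edgeR adjusted p 0.413). It is the shortest tested member, with an effective length of 262 bases, and its value was -0.028 with the length trend removed. Rps3, whose protein also binds NF-kappa-B, had a log2 fold change of 0.38 (SE 0.20), Rpl13a, which in human cells can leave the ribosome and silence mRNAs after interferon gamma, 0.28 (SE 0.22), Rps27a, which is made as a fusion with ubiquitin, 0.34 (SE 0.21), and Rps6 0.28 (SE 0.20). All 4 stayed short of the threshold, with edgeR adjusted p from 0.451 for Rps3 to 0.566 for Rpl13a.

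Rps27 (chromosome 3, 90212667 to 90213648, GRCm38.p6) stood at 446 and 556 CPM in KO libraries and at 500.1 and 499.7 CPM in WT libraries. The KO libraries lay on either side of the WT pair, and the log2 fold change was 0.0034 (SE 0.21). With the length trend removed it was -0.54 (SE 0.20, unadjusted edgeR p 0.0332, adjusted p 0.425), the lowest of any member. The effective length of Rps27 was 315 bases, and the 33 other genes under 400 bases had a median log2 fold change of 0.34. The trend thus moved Rps27 by more than that median, and its low adjusted value may in part reflect the fit at short lengths, which was not tested. Rps27 and its retrogene Rps27rt share sequence, and Rps27rt had 182 and 159 FPKM in KO libraries and 193 and 125 FPKM in WT libraries. Rps18, at the head of the small subunit, stood at 1022 and 1072 CPM in KO libraries and at 916 and 975 CPM in WT libraries (log2 0.15, SE 0.20), and Rps7 had a log2 fold change of 0.17 (SE 0.20). Rps4x, X-linked, stood at 2016 and 2662 CPM in KO libraries and at 2104 and 1994 CPM in WT libraries, and Rpl10, also X-linked and the last protein joined to the large subunit, at 1580 and 1985 CPM in KO libraries and 1605 and 1316 CPM in WT libraries. In both, KO replicate 9 was below WT replicate 1.

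Rps27l (chromosome 9, 66944624 to 66949522), a paralog of Rps27 that p53 induces, had the largest log2 fold change of the members, 0.90 (SE 0.35, edgeR p 0.0365, adjusted p 0.413). It stood at 47.9 and 87.7 CPM in KO libraries and at 45.1 and 27.5 CPM in WT libraries. KO replicate 9 barely exceeded WT replicate 1, and the value was 0.43 (SE 0.22) with the length trend removed, 0.40 without KO replicate 12, 0.58 without WT replicate 6 and 1.31 without WT replicate 1. In FPKM, Rps27l came to 6.86% and 10.1% of Rps27 in KO libraries and to 5.76% and 3.53% in WT libraries.

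Rpl22l1 (chromosome 3, 28805508 to 28807424), the paralog of Rpl22 that Rpl22 is known to repress in mice, stood at 58.0 and 52.9 CPM in KO libraries and at 59.99 and 55.4 CPM in WT libraries. The groups overlapped, with a log2 fold change of -0.057 (SE 0.21). Rpl22, whose loss in mice impairs alpha-beta T cell development, stood at 448 and 592 CPM in KO libraries and at 434 and 372 CPM in WT libraries (log2 0.37, SE 0.23). In FPKM, Rpl22l1 came to 58.2% and 40.3% of Rpl22 in KO libraries and to 61.4% and 65.0% in WT libraries. Both KO ratios were below both WT ratios, and KO replicate 9 lay near the WT libraries.

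Rpl36al stood at 156.7 and 218 CPM in KO libraries and at 163 and 109 CPM in WT libraries, with overlapping groups (log2 0.46, SE 0.28), and its partner Rpl36a had 0.31 (SE 0.21). Rpl7l1, a nucleolar relative of Rpl7, had 0.50 (SE 0.27), and Rpl7 had 0.40 (SE 0.22). The remaining paralogs were close to silent. Rpl3l, the muscle counterpart of Rpl3, was at 1.34 and 0.29 FPKM in KO libraries and 0.43 and 1.52 FPKM in WT libraries, while Rpl3 was at 1796 and 1863 FPKM in KO libraries and 1608 and 1806 FPKM in WT libraries. Rpl39 itself stood at 301 and 362 CPM in KO libraries and at 290 and 254 CPM in WT libraries (log2 0.29, SE 0.22). Rpl39l, its testis counterpart, stayed at or under 1.05 FPKM, and Rpl32l, a copy of Rpl32, at or under 2.72 FPKM in every library. At these counts no difference was detectable, with SE from 0.66 to 1.07. Rps4l, the paralog of Rps4x, was not analysed here.

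**Figure D5:**
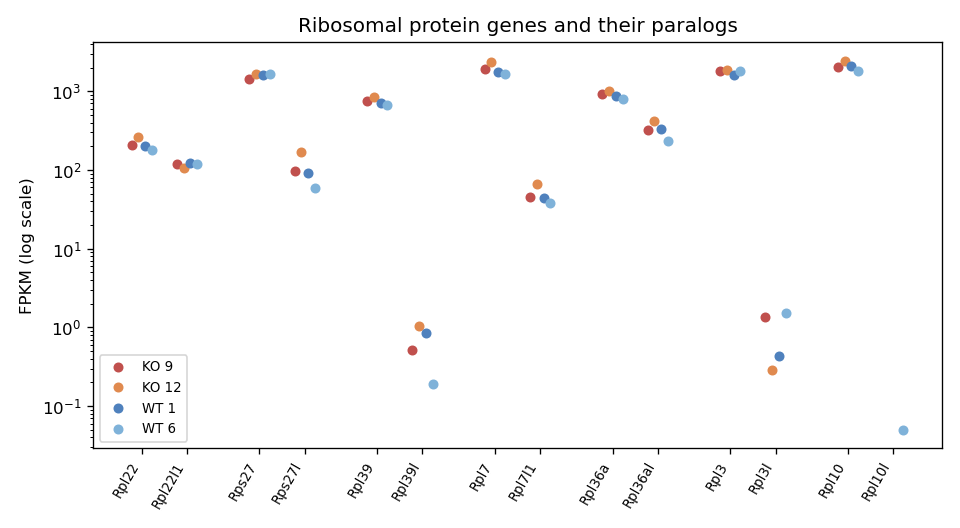
FPKM (log scale) of 7 ribosomal protein genes and their paralogs, with 1 point per library (KO 9, KO 12, WT 1, WT 6), points at 0 not drawn. Rps27l ranged from 59.0 to 168 FPKM, Rpl22l1 from 104 to 123, and Rpl3l and Rpl39l stayed under 2.

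Promoter sequence was not used in the choice by symbol. RefSeq starts on GRCm38.p6 were matched for 65 of the 85 members. A run of at least 8 bases of C or T that reached into the 10 bases before or the 20 bases after the start was present in 29 of the 65 (44.6%), and in 16.7% of 27025 genes. On the gene's strand of the window from 250 bases before to 50 after the start, CTTTC was found in 40 members (61.5%) and 34.5% of all genes, and CTCTTTC, which contains it, in 12 (18.5%) and 3.91%. CGGAAG, on either strand, was found in 43 (66.2%) and 17.2%. The 8 windows below, chosen because the results above turn on these genes, run from 30 bases before to 20 bases after the start, 5′ to 3′ on the gene's strand, and capitals mark the longest C or T run near the start.
Rplp2: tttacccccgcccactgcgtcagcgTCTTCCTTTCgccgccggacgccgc
Rps2: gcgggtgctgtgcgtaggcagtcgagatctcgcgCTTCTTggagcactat
Rpl38: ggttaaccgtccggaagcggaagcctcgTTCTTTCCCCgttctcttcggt
Rps27l: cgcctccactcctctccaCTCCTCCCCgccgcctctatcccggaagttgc
Rps15a: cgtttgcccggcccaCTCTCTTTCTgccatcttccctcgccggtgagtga
Rps18: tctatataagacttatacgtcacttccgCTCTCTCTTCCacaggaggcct
Rps27: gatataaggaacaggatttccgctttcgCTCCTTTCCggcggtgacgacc
Rpl22l1: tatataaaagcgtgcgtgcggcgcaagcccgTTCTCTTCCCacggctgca
They lie at chr7:141447621-141447670 (+) for Rplp2, chr17:24720033-24720082 (+) for Rps2, chr11:114668550-114668599 (+) for Rpl38 and chr9:66946056-66946105 (+) for Rps27l, the first listed of 2 starts. The others lie at chr7:118116128-118116177 (-) for Rps15a, chr17:33955646-33955695 (-) for Rps18, chr3:90213629-90213678 (-) for Rps27 and chr3:28805478-28805527 (+) for Rpl22l1. In these chosen windows, pyrimidine runs of 9 to 11 bases stood at the start both of members with a larger fold change (Rplp2, Rpl38) and of those with a smaller one (Rps18, Rps27, Rpl22l1). The run at Rps2 was 6 bases long. The runs of 9 bases at Rps27l and 10 bases at Rps15a ended before the start. Whether run length goes with fold change across members was not tested. A match is a description of these letters, and RefSeq starts may differ from the starts used in these cells.

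Other genes of translation were read from the same fit. Of 22 tested translation genes known or thought to carry the TOP motif, 17 were positive (49.8% of all genes were), with a median log2 fold change of 0.29, or 0.072 with the length trend removed. Their 2 genes of smallest p were subunits of elongation factor eEF1, Eef1d at 230 and 305 CPM in KO libraries and 183 and 134 CPM in WT libraries (log2 0.76, SE 0.26, edgeR adjusted p 0.412), and Eef1g (0.51, SE 0.20, edgeR adjusted p 0.413). None of the 22 was called in either direction by edgeR or DESeq2, with 2 (9.09%) higher and 0 lower at an unadjusted edgeR p under 0.05, where all genes had 6.23% and 5.73%.

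Of 25 initiation factor genes 24 were positive, where 49.8% of all genes were, with a median of 0.45, or 0.39 with the length trend removed. Eif5a, whose product helps ribosomes past proline stretches, stood at 1600 and 1998 CPM in KO libraries and at 1205 and 683 CPM in WT libraries (log2 0.93, SE 0.30, edgeR adjusted p 0.394). Its log2 fold change was 0.58 without WT replicate 6 and 1.41 without WT replicate 1, fits that each leave a single WT library. Eif3g, a subunit of eIF3, had 0.70 (SE 0.23, edgeR adjusted p 0.412). These genes were longer than the ribosomal protein genes, with a median effective length of 2422 bases, and 0 of them were called by edgeR or DESeq2, with 5 of 25 higher and 0 lower at an unadjusted edgeR p under 0.05, where all genes had 6.23% and 5.73%.

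Of 18 genes of the mTOR and LARP1 axis, which sets the translation of TOP mRNAs, 8 were positive and 10 negative, where 49.8% and 50.2% of all genes were (median -0.064). Eif4ebp1, which encodes an inhibitor of cap-dependent translation, had a log2 fold change of 0.62 (SE 0.23, edgeR adjusted p 0.413), and Rictor, a subunit of mTOR complex 2, -0.87 (SE 0.32, edgeR adjusted p 0.413). Eif4ebp1 stood at 0.34 (SE 0.25) with the length trend removed. Rictor, with an effective length of 9331 bases, stood at -0.45 with the length trend removed, -0.46 without KO replicate 12 and -1.45 without KO replicate 9. Of 18 genes that help ribosomal proteins to import, assemble or signal to p53, 14 were positive, against 49.8% of all genes. The median of these 18 was 0.42, or 0.31 with the length trend removed. Ltv1, a factor of small subunit assembly, was at 0.61 (SE 0.24) and Grwd1, a chaperone of Rpl3, at 1.01 (SE 0.45). Grwd1 stood at 28.2 and 56.3 CPM in KO libraries and at 28.8 and 13.1 CPM in WT libraries, so the groups overlapped, and its value was 0.43 without KO replicate 12, 0.55 without WT replicate 6 and 1.70 without WT replicate 1. No gene of either list was called by edgeR or DESeq2, with 1 (5.56%) higher in each and 1 and 0 lower at an unadjusted edgeR p under 0.05, near the 6.23% and 5.73% of all genes.

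The 78 genes of the mitochondrial ribosome, which translates the mitochondrial genome, gave 76 positive log2 fold changes with a median of 0.43, and 0 were called by edgeR or DESeq2, with 13 (16.7%) higher and 0 lower at an unadjusted edgeR p under 0.05. Over all genes 49.8% were positive, and 6.23% were higher and 5.73% lower at that p. Counts of the mitochondrial list came to 0.33% and 0.409% of the libraries in KO cells and to 0.307% and 0.268% in WT cells. Mrpl12, which also binds the mitochondrial RNA polymerase, stood at 89.5 and 132 CPM in KO libraries and at 63.1 and 48.9 CPM in WT libraries (log2 0.99, SE 0.27, edgeR adjusted p 0.354). Mrps18b had 1.06 (SE 0.31, edgeR adjusted p 0.385), and ran from 0.72 to 1.50 with single libraries left out. With the length trend removed the median of the mitochondrial list was 0.18 and that of the cytosolic members -0.054. That difference was not tested.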

How the data were processed

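Gene-level RNA-seq of 4 libraries (2 KO, 2 WT) was analysed. Bowtie2 and RSEM and the builds GRCm38.p6 and mm10 are named in the submitters' processing notes. Their versions and settings are not stated in the labels. The deposited table holds an expected count per gene and library, estimated by the authors, and an expression value with no unit in its header. That deposited value was taken as FPKM made by the authors, since counts divided by it give transcript-like lengths. Effective length is that quotient (values of at least 0.5 FPKM, median over libraries).

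Expected counts were rounded, filtered with filterByExpr (minimum count 10), scaled by TMM and tested for all 12816 genes with edgeR 4.0.16 (quasi-likelihood, robust, two-sided, Benjamini-Hochberg threshold 0.05, limma 3.58.1, R 4.3.3). SE was taken from the F statistic. The common dispersion was 0.0678. A loess trend (span 0.5) on log length gave the length-adjusted fit. Scripts were first tested on simulated data. DESeq2 1.42.0 and limma were alternatives, with FPKM on the log2(value + 1) scale. Coordinates and promoters are from RefSeq, and transcript lengths from GENCODE.

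The members, lists and tests were chosen with earlier results of these data known. Named genes were, by rule, the 5 largest and 5 smallest fold changes, the 5 highest in FPKM, listed paralogs, stalk and well-known members, and 2 of smallest p per other list. Rps15a, Rps20, Rpl35, Rpl37 and Rpl4 were named after their values were seen, as were genes named for overlapping groups or shared reads.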

Additional observations from a re-analysis of the deposited data

How the results depend on the processing

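No paired analysis was possible because KO replicates 9 and 12 and WT replicates 1 and 6 have no number in common. The count of members called was 0 in both directions under all 15 alternatives. The median log2 fold change of members was -0.049 with the length trend removed and -0.054 with that trend fitted without them, both reversed, and ran from 0.17 (without KO replicate 12) to 0.48 (without KO replicate 9) with single libraries left out. Under the other settings it ran from 0.257 (limma on log2(FPKM + 1)) to 0.355 (no filter). The median of all genes, -0.0024, moved to -0.023 with upper-quartile factors, -0.081 with library size alone and -0.049 on log2(FPKM + 1), and ran from -0.040 to 0.029 with single libraries left out. Over all genes 1 was called higher and 0 lower. DESeq2 called 88 and 97, and the fit with no filter 48 and 33. With single libraries left out the higher calls ran from 0 to 113 and the lower calls from 0 to 81. The difference in the share of counts, 1.50 percentage points, was 0.727 to 2.27 with single libraries left out (lowest without KO replicate 12, highest without KO replicate 9) and 1.71 for FPKM. Leaving out Rpsa or adding retrogene and pseudogene rows, both chosen after the data were seen, gave 1.41 and 1.50. Of 703 values for named genes under these alternatives, 650 kept direction and call and 2 were called that had not been (Eif5a and Mrps18b without WT replicate 1).

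Negative members numbered 2 before and 54 after the length trend (fitted without members) was removed. Among the genes chosen by the naming rule, and Rpl4, the log2 fold changes that turned negative, given for the trend on all genes and for that fitted without members, were Rpl38 -0.0031 and -0.028, Rps27 -0.52 and -0.54, Rps18 -0.28 and -0.30, Rps7 -0.15 and -0.15, Rps26 -0.075 and -0.093, Rpl23a -0.14 and -0.15, Rplp0 -0.043 and -0.043, Rpl39 -0.18 and -0.20, Rpl39l -0.14 and -0.14, Rpl36a -0.13 and -0.15, Rpl3 -0.049 and -0.049, Rpl10 -0.067 and -0.073, Rps4x -0.15 and -0.16, Rpl5 -0.075 and -0.077, Rpl11 -0.035 and -0.045, Rps19 -0.18 and -0.19, Rpl13a -0.038 and -0.041, Rps27a -0.035 and -0.043, and Rpl4 -0.049 and -0.049. The value of Rps27, near 0, was also -0.017 with upper-quartile factors, -0.079 with library size alone, -0.0076 with a minimum count of 50, -0.0052 with limma-voom, -0.086 with limma on log2(FPKM + 1). With single libraries left out Rps27 ran from -0.17 to 0.14, Rpl3l from -1.61 to 0.82, Rpl22l1 from -0.13 to 0.013, Rpl39l from -0.53 to 2.12 and Rps4x from -0.026 to 0.37. The cause of these changes was not tested. Rpl3l, Rpl39l and Rpl32l had SE from 0.66 to 1.07, and each group had 2 libraries.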
